A study of Homo sapiens with 16 samples.

Results

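The enzymes that remove methyl groups from lysine 36 of histone H3 (H3K36) were examined in RNA-seq of human 293T cells. The 7 genes KDM2A, KDM2B, KDM4A, KDM4B, KDM4C, KDM8 and RIOX1 were taken by name from the 58884 genes of the expression table, and each name matched 1 row. 293T is an embryonic kidney line that carries the SV40 large T antigen. In the wild type cells SETD2 or hnRNP L was depleted with siRNA, and a scramble siRNA served as the control. There were 2 libraries for each siRNA, all at 72 h. By their labels the groups shared the same unmodified line and differed in the siRNA. The SETD2 libraries are numbered 2 and 3 and the others 1 and 2. The study describes its replicates as independent biological ones, and the labels give no culture for a library.

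H3K36 is methylated along the bodies of transcribed genes. SETD2 places the trimethyl mark (H3K36me3) behind elongating RNA polymerase II, and enzymes such as NSD1 place the dimethyl mark. The marks are taken off by proteins with a Jumonji C (JmjC) domain, which use iron and 2-oxoglutarate. KDM2A and KDM2B act on the mono- and dimethyl forms and bind unmethylated CpG DNA through a CXXC zinc finger. KDM4A, KDM4B and KDM4C act on the di- and trimethyl forms of H3K36 and of H3K9. KDM8 and RIOX1 are smaller JmjC proteins, and RIOX1 is also a ribosomal protein hydroxylase of the nucleolus. hnRNP L is a splicing regulator that binds CA-rich RNA and interacts with SETD2.

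Each value is a TPM, a gene's share of the transcripts of its library corrected for transcript length, and can be set beside the TPM of another gene. TPM keep no read counts, so the number of reads behind a value and its counting error are unknown. The study does list the sequencing depth of each library as a whole. In RNA from a whole culture, fewer expressing cells and less RNA per cell cannot be told apart. SETD2 stood at 4.24 and 4.91 TPM with its own siRNA and at 10.2 to 13.4 TPM in the 4 other libraries. HNRNPL stood at 25.0 and 28.8 TPM with its own siRNA and at 341 TPM or more in the 4 other libraries. Both targets were therefore low in the libraries that carry their label. The 7 markers of 293T cells, among them VIM, KRT8, KRT18, NEFL and NEFM, were present in all 6 libraries. The lowest of them, PAX2, stood at 1.65 to 2.79 TPM. UMOD and AQP2 of mature kidney tubules and PTPRC of blood cells were listed at 0. The other markers of mature kidney or other cell types were not all at 0. COL3A1 stood at 0.97 to 1.22 TPM, ALB at 0.02 to 0.40 TPM, and NPHS1, PECAM1 and SLC12A1 at no more than 0.16 TPM. Of the markers, NEFM stood at 437 and 454 TPM with hnRNP L siRNA and at 184 to 274 TPM elsewhere, and the part of this shift in the results for the demethylases was not tested. The 37 mitochondrially encoded genes took 17.5% of the TPM of scramble library 1 and between 6.70% and 10.9% in the others. This share lowers every other TPM of that library, so results that move with it are also given with the TPM rescaled without these genes (mitochondrial rescaling).

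The 7 genes lie on 7 chromosomes of hg38. KDM2A spans chr11:67119263-67258082, KDM2B chr12:121429096-121581023, KDM4A chr1:43650149-43705518, KDM4B chr19:4969113-5153598, KDM4C chr9:6720863-7175648, KDM8 chr16:27203508-27221768 and RIOX1 chr14:73490933-73493394. All are protein-coding in GENCODE release 44, and KDM2B alone lies on the minus strand. The spans range from 2462 bases for RIOX1, with 1 annotated transcript, to 454786 bases for KDM4C, with 15.

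Because hnRNP L binds CA repeats, uninterrupted runs of at least 5 CA units on the strand of the gene were counted over each gene span. KDM4C held 8 runs, KDM2A 5, KDM2B 2 and KDM8 1, and no run was found in KDM4A, KDM4B or RIOX1. Per 10 kb this was 0.548 for KDM8, 0.360 for KDM2A, 0.176 for KDM4C and 0.132 for KDM2B. Of the 12801 protein-coding genes tested for expression, 6579 (51.4%) held such a run, and the median density over all of them was 0.0922 per 10 kb. In the spliced protein-coding transcripts of the 7 genes the longest run was of 3 CA units. A run is only a stretch of letters, and binding was not measured here. The runs below are shown as examples because they are the kind of sequence that hnRNP L is known for. All 4 lie in introns, are read on the plus strand of hg38 and carry the CA units in capitals. They stand at chr11:67240917-67240946 in KDM2A, chr9:6995347-6995376 and chr9:7141925-7141954 in KDM4C, and chr16:27218841-27218870 in KDM8.
KDM2A intron: tgccacccccCACACACACAccgacacagt
KDM4C intron, 8 units: gcacagaCACACACACACACACAatgtggt
KDM4C intron, 5 units: gatgtgtcatCACACACACAtaaaccccat
KDM8 intron: tgtctcaaaCACACACACACAtaatggata

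The 7 transcripts fell into a main tier of 5 genes, a low gene and a gene listed at about 0. KDM2B was the most abundant by the mean over the 6 libraries (21.3 TPM), followed by KDM4A (20.1), KDM4C (15.3), KDM2A (14.8), KDM4B (11.8), KDM8 (2.498) and RIOX1 (0.00833). KDM2B lay at percentile 68.1 of the mean TPM of the 16300 genes tested, KDM4B at 54.9 and KDM8 at 24.7. From KDM2B down to KDM4B the ranges of neighbours overlapped. KDM2B exceeded KDM4A in 4 of 6 libraries, and KDM4C exceeded KDM2A in 2 of 6, so the order of these neighbours is not fixed by the data. KDM2A exceeded KDM4B in 6 of 6 libraries although their ranges touched. KDM4B and KDM8 did not overlap, nor did KDM8 and RIOX1.

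**Figure D1:**
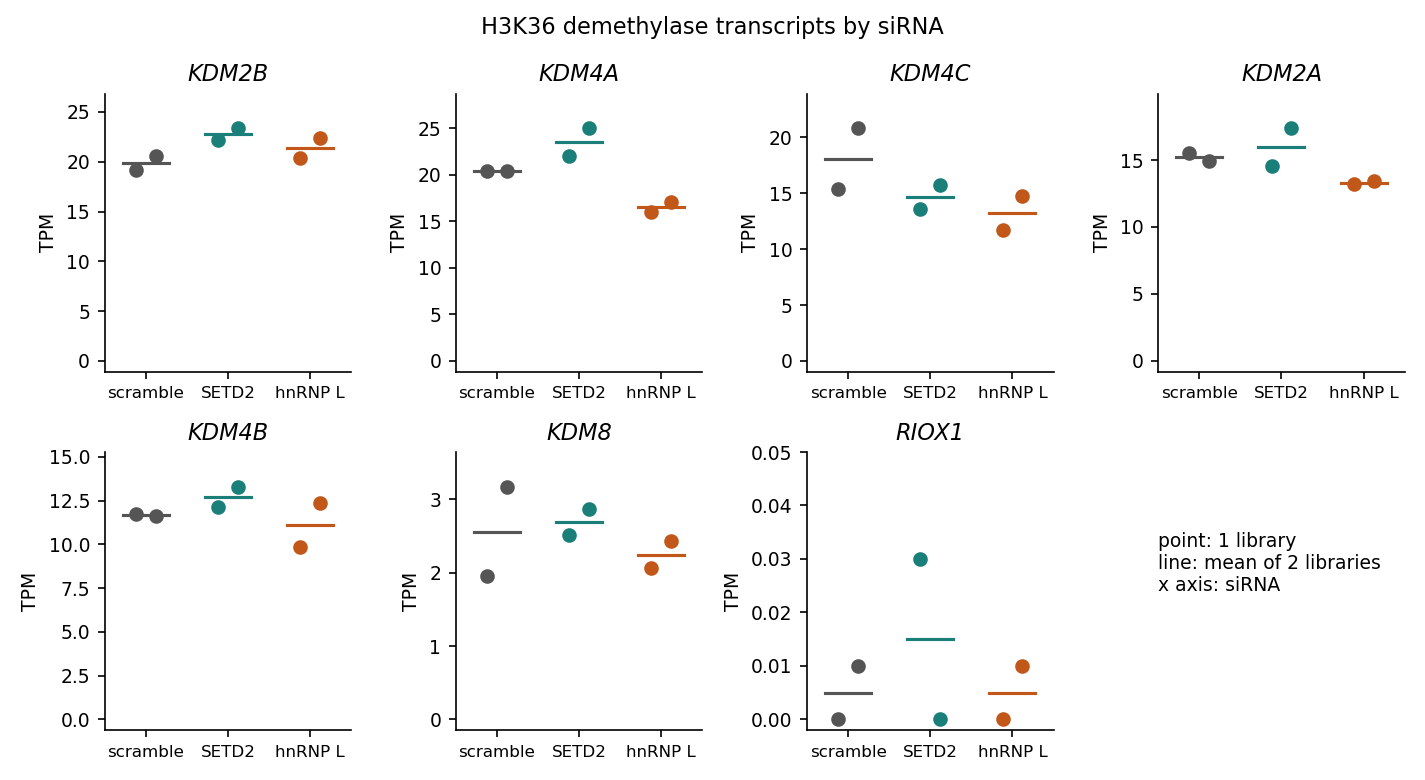
TPM of each of the 7 genes (vertical axes, each from 0 with its own top) by siRNA (horizontal axis), in order of mean level. Points are libraries and lines are means of 2 libraries. KDM4A was between 16.0 and 17.1 TPM with hnRNP L siRNA and at 20.4 TPM or more in the other libraries, while RIOX1 never passed 0.03 TPM.

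Of the KDM4 family, which acts on the trimethyl form, KDM4A and KDM4C had the widest ranges of group means among the members, 0.49 and 0.43 on the log2 scale. KDM4A stood at 20.4 and 20.4 TPM with scramble siRNA, at 21.97 and 24.97 TPM upon SETD2 depletion and at 16.0 and 17.1 TPM upon hnRNP L depletion. The SETD2-depleted libraries were the highest and the hnRNP L-depleted libraries the lowest. With the mitochondrial rescaling KDM4A stood at 24.7 and 22.2 TPM with scramble siRNA, at 23.6 and 26.8 TPM upon SETD2 depletion and at 18.0 and 18.7 TPM upon hnRNP L depletion. The hnRNP L-depleted libraries were the lowest on both scales, and the scramble and SETD2-depleted libraries overlapped on the rescaled one. KDM4B stood at 11.8 and 11.6 TPM with scramble siRNA, at 12.2 and 13.3 TPM upon SETD2 depletion and at 9.82 and 12.4 TPM upon hnRNP L depletion. Its 2 hnRNP L-depleted libraries lay on either side of the scramble libraries. KDM4C stood at 15.4 and 20.8 TPM with scramble siRNA, at 13.6 and 15.7 TPM upon SETD2 depletion and at 11.7 and 14.7 TPM upon hnRNP L depletion. The higher scramble library was library 2, and the gap between the scramble libraries was wider than the gap between any 2 group means.

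The KDM2 genes, which act on the lower methylation states, had narrower ranges of group means, 0.25 for KDM2A and 0.20 for KDM2B on the log2 scale. KDM2A stood at 15.5 and 14.9 TPM with scramble siRNA, at 14.6 and 17.4 TPM upon SETD2 depletion and at 13.2 and 13.4 TPM upon hnRNP L depletion. The hnRNP L-depleted libraries were the lowest of the 6, and the SETD2-depleted libraries enclosed the scramble libraries. KDM2B, which recruits a variant Polycomb repressive complex 1 (PRC1) to CpG islands, stood at 19.1 and 20.5 TPM with scramble siRNA. Upon SETD2 depletion it stood at 22.2 and 23.4 TPM, and upon hnRNP L depletion at 20.4 and 22.4 TPM. The SETD2-depleted libraries were above the scramble libraries, and the hnRNP L-depleted libraries overlapped both groups.

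The low gene KDM8 stood at 1.95 and 3.17 TPM with scramble siRNA, at 2.51 and 2.87 TPM upon SETD2 depletion and at 2.06 and 2.43 TPM upon hnRNP L depletion. The scramble libraries held both the lowest and the highest value. RIOX1 was listed at 0 and 0.01 TPM with scramble siRNA, at 0.03 and 0 TPM upon SETD2 depletion and at 0 and 0.01 TPM upon hnRNP L depletion. RIOX1 is a gene without annotated introns, and HEATR4, which lies over it on the opposite strand, was also listed at no more than 0.01 TPM. Its mean was below the 0.5 TPM needed to enter the test, so RIOX1 has no fold change here. TPM do not show whether its reads were few or were left out in the counting, so its rank and its part in the sums are as listed only. Its paralog RIOX2 stood at 27.1 to 34.9 TPM and was picked with its values known.

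Other genes lie over the members and could share reads with them, since the strandedness of the counting is not given in the sources used here. KDM4A-AS1, antisense to KDM4A, stood at 3.36 and 2.14 TPM with scramble siRNA, at 1.11 and 3.36 TPM upon SETD2 depletion and at 3.15 and 3.40 TPM upon hnRNP L depletion. The antisense transcript was thus not low in the hnRNP L-depleted libraries, where KDM4A was lowest. AL451062.3, a model on the strand of KDM4A that overlaps it, was listed at 0 throughout. RNF34, a ubiquitin ligase gene on the strand opposite KDM2B, stood at 24.4 to 28.5 TPM, and the lncRNA AC145422.1 over KDM2B at 0.57 to 2.17 TPM. Within KDM4C the highest overlapping gene was the pseudogene SNRPEP2 at 1.94 to 4.19 TPM, and the lncRNA AL354707.1 stood at 0.13 to 0.58 TPM. The lncRNA AC109449.1 over KDM8 reached 0.21 TPM. No listed gene overlapped KDM4B.

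Whether loss of the H3K36me3 writer was accompanied by a change of the erasers was asked by comparing SETD2 siRNA with scramble siRNA. The test was limma on log2(TPM + 0.5), and a gene was called where its adjusted p was under 0.05 and it changed by over 1.5-fold. None of the 6 demethylase genes tested was called. Changes of low genes such as KDM8 are understated on this scale. Of all 16300 genes, 0.104% were called, and with no fold limit the share was the same, with 0 members. The study tested read counts of protein-coding and lncRNA genes at these cut-offs and reported more genes changed upon SETD2 depletion. The share of 0.104% is thus that of the limma test on TPM. At an unadjusted p under 0.05 there were 0 members, against 13.1% of all genes. With the mitochondrial rescaling KDM4C had an unadjusted p of 0.0362 by limma (adjusted p = 0.297). On that scale 2521 of 16285 genes had an unadjusted p under 0.05.

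KDM2B and KDM4A had the largest upward values upon SETD2 depletion, at 0.20 and 0.19 on the log2 scale (SE 0.108 and 0.111, limma adjusted p = 0.461 and 0.472). Both were at 0.10 with the mitochondrial rescaling. KDM4C had the value farthest below 0, at -0.28 (SE 0.171, limma adjusted p = 0.5003), and at -0.38 with the rescaling. It was at -0.49 without scramble library 1 and at -0.069 without scramble library 2. KDM4B stood at 0.12, KDM8 at 0.09 and KDM2A at 0.06, with limma adjusted p of 0.738, 0.890 and 0.860. With the rescaling KDM4B stood at 0.023, KDM8 at 0.008 and KDM2A at -0.034. KDM8 turned to -0.20 without scramble library 1. The median of the 6 genes was 0.10, against 0.01 over all genes tested, and it was 0.02 after the mitochondrial rescaling, against -0.07. KDM2B, KDM4A and KDM4B, 3 of 6, lay higher in both SETD2-depleted libraries than in both scramble libraries, as did 22.9% of all genes tested. In either direction the libraries of these groups did not overlap for 43.5% of all genes. With the mitochondrial rescaling this left 1 of 6 higher, KDM2B, and 1 of 6 lower, KDM4C, against 14.0% and 31.5% of all genes.

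The data bound the size of any change upon SETD2 depletion. The 95% interval of KDM4A ran from 0.962-fold to 1.36-fold and that of KDM2B from 0.967-fold to 1.36-fold. For KDM2A it ran from 0.863-fold to 1.26-fold and for KDM4B from 0.877-fold to 1.34-fold. These 4 intervals exclude a 1.5-fold change in either direction, and they did so with a pseudocount of 0.1 too. The upper bound of KDM8 was 1.49-fold with the pseudocount of 0.5 and 1.58-fold with 0.1, so a 1.5-fold increase of KDM8 was not excluded. KDM4C reached 0.628-fold at its lower bound, so a 1.5-fold decrease of KDM4C lay within its interval. With the mitochondrial rescaling the interval of KDM4C ran from 0.606-fold to 0.978-fold.

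**Figure D2:**
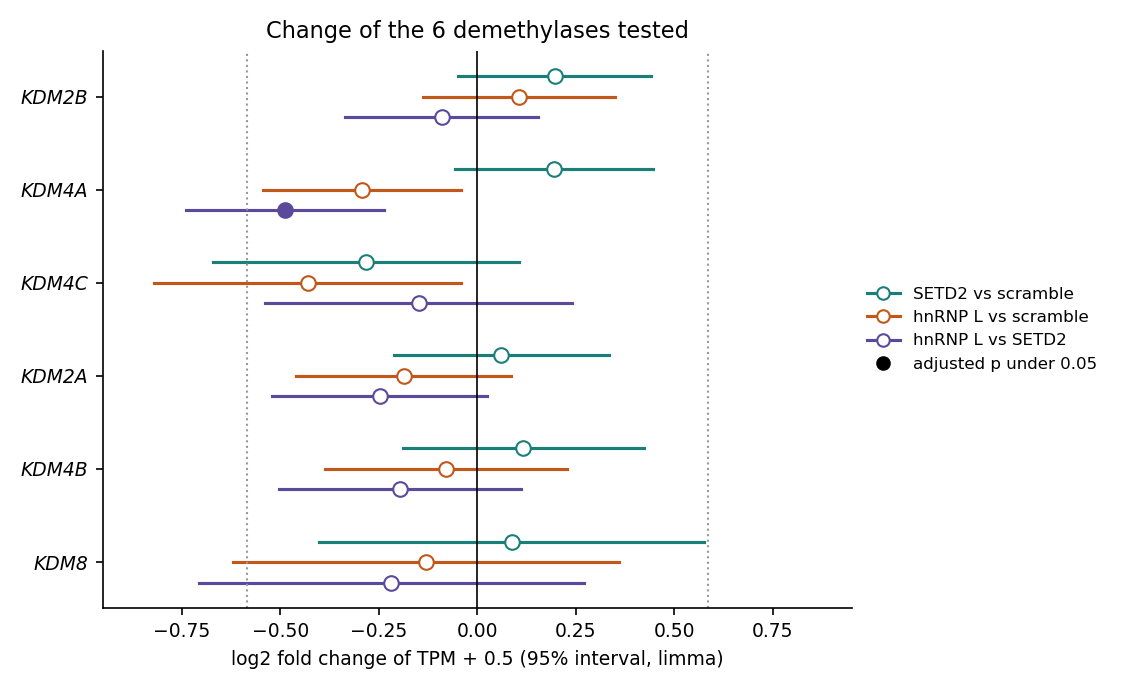
Log2 fold change of TPM + 0.5 (horizontal axis) with its 95% interval for the 6 tested genes (vertical axis) in the 3 comparisons, named by their siRNAs. Dotted lines mark a 1.5-fold change and the filled point an adjusted p under 0.05. KDM4A with hnRNP L against SETD2 siRNA, at -0.49, is the only filled point. KDM2B in the same comparison turned positive under median-ratio scaling and quantile normalization.

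Upon hnRNP L depletion the KDM4 genes KDM4A and KDM4C had the largest changes against scramble siRNA, both downward, and neither passed the test. KDM4A stood at 0.816-fold (log2 -0.29, SE 0.111, limma adjusted p = 0.122) and KDM4C at 0.742-fold (log2 -0.43, SE 0.171, limma adjusted p = 0.140). Of all genes tested, 6.76% were called and 11.2% had an adjusted p under 0.05 with no fold limit. The 2 demethylase genes with an unadjusted p under 0.05 stand against 28.4% of all genes. KDM2A stood at -0.19, KDM8 at -0.13, KDM4B at -0.08 and KDM2B at 0.11 on the log2 scale, with limma adjusted p of 0.346, 0.731, 0.738 and 0.562. KDM4B turned to 0.01 under median-ratio scaling and to 0.05 under quantile normalization.

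KDM2A, KDM4A and KDM4C, 3 of 6, were lower in both hnRNP L-depleted libraries than in both scramble libraries, as were 37.8% of all genes tested. In either direction these groups did not overlap for 56.6% of all genes. The median of the 6 genes was -0.16 against -0.08 over all genes, and -0.07 against 0.00 under median-ratio scaling. The KDM4C value depended on the scramble library, at -0.64 without scramble library 1 and at -0.22 without scramble library 2. With the mitochondrial rescaling KDM4A stood at -0.34 (limma adjusted p = 0.0784) and KDM4C at -0.48 (limma adjusted p = 0.0727). The 95% intervals of KDM2A, KDM2B, KDM4A and KDM4B lay within a 1.5-fold change, with the lowest bound at 0.686-fold for KDM4A, which was 0.662-fold and past that limit with the rescaling. The interval of KDM4C reached down to 0.567-fold and that of KDM8 to 0.651-fold.

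The comparison of the depletions with each other asked whether the demethylase transcripts differed between loss of the writer and loss of its partner. KDM4A was lower upon hnRNP L depletion than upon SETD2 depletion, at 0.713-fold with a 95% interval of 0.599-fold to 0.849-fold (log2 -0.49, SE 0.111, limma adjusted p = 0.0279). This is a difference between the depletions, and it stayed under the 1.5-fold limit, so KDM4A was not called. Among all genes tested 6.84% were called, 10.8% passed on adjusted p alone, and 7.99% did so in the lower direction. KDM4A was 1 of 6 on adjusted p alone, and also the 1 of 6 with an unadjusted p under 0.05, against 28.5% of all genes. The comparison draws on the upward value upon SETD2 depletion and the downward value upon hnRNP L depletion, neither of which passed against scramble siRNA.

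KDM4A was lower in all 16 refits of this comparison, from -0.58 to -0.37. Those that changed only the filter, the gene set, the trend or the libraries not compared leave the value at -0.49. The direction of these refits was fixed in advance. With both libraries of each compared group kept, the adjusted p ran from 0.0134 to 0.0816. It was above 0.05 with no filter on low genes (0.0816) and with no variance trend (0.0592). The value was -0.58 without SETD2 library 2, -0.40 without SETD2 library 3, -0.44 without hnRNP L library 1 and -0.53 without hnRNP L library 2. In each of these 4 refits the adjusted p was above 0.05, with 1 library left in a group. A dependence on the library left out cannot be told apart from the loss of a replicate. The adjusted p remained under 0.05 with median-ratio scaling (-0.38, limma adjusted p = 0.0347) and with the mitochondrial rescaling (-0.44, limma adjusted p = 0.0466).

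**Figure D3:**
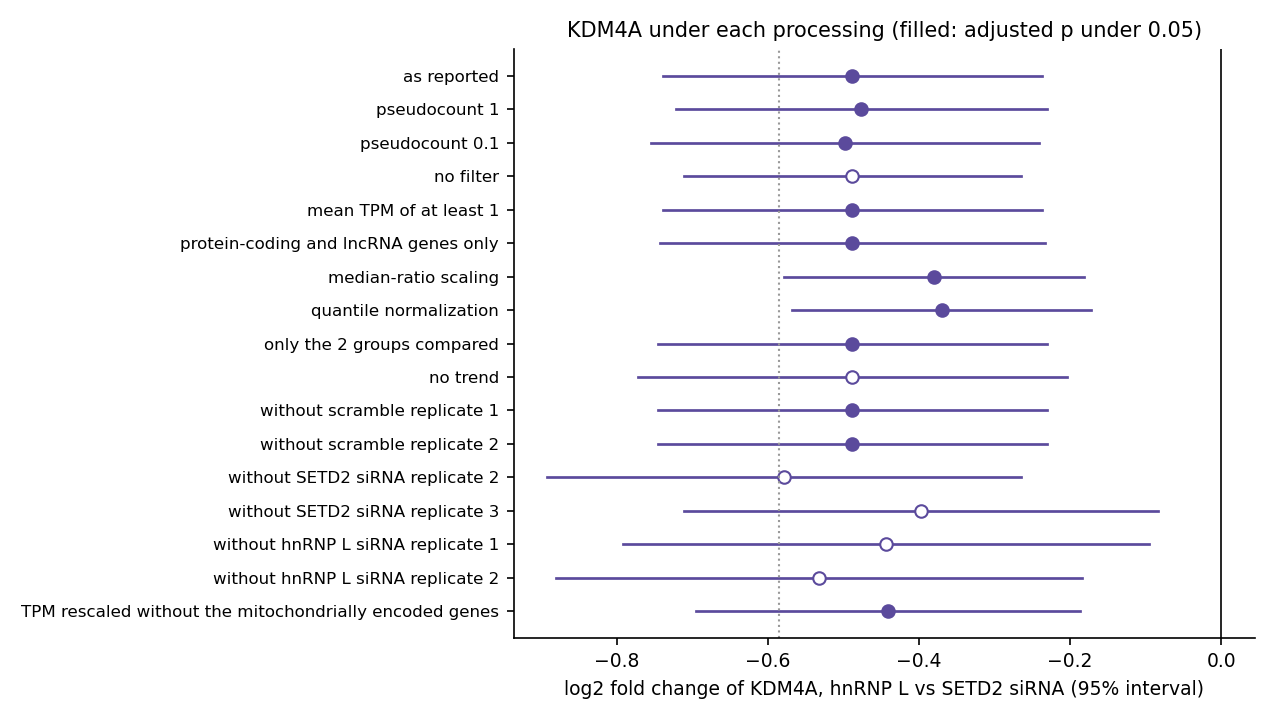
Log2 fold change of KDM4A, hnRNP L against SETD2 siRNA (horizontal axis), with its 95% interval as reported and in 16 refits (vertical axis). Filled points have an adjusted p under 0.05 and the dotted line marks a 1.5-fold decrease. All points lie below 0, between -0.58 and -0.37, and the 4 refits without a SETD2 or an hnRNP L library are open. Refits that changed only the filter, the gene set, the trend or the libraries not compared stand at the reported value by construction.

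The 5 other tested genes had values below 0 in this comparison, from -0.25 for KDM2A to -0.09 for KDM2B, although KDM2B turned to 0.02 under median-ratio scaling and to 0.04 under quantile normalization. KDM8 stood at -0.22, KDM4B at -0.20 and KDM4C at -0.15. Their limma adjusted p lay between 0.217 for KDM2A and 0.628 for KDM2B. KDM4C turned to 0.01 without hnRNP L library 1. KDM2A, KDM4A and KDM8, 3 of 6, were lower in both hnRNP L-depleted libraries than in both SETD2-depleted libraries, as were 41.2% of all genes tested. In either direction this held for 59.8% of all genes. The median of the 6 genes was -0.21 against -0.10 over all genes tested, and -0.11 against 0.00 under median-ratio scaling.

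Ratios between members within a library do not change when a library is scaled by 1 factor. They were chosen after the values were seen and are given as a description, with no test. The summed TPM of KDM4A, KDM4B and KDM4C over that of KDM2A and KDM2B was 1.37 and 1.49 with scramble siRNA, 1.298 and 1.33 upon SETD2 depletion and 1.12 and 1.23 upon hnRNP L depletion. The 3 groups did not overlap, with scramble highest and hnRNP L lowest. KDM4A over KDM2B was 1.07 and 0.995 with scramble siRNA, 0.989 and 1.07 upon SETD2 depletion and 0.786 and 0.764 upon hnRNP L depletion. KDM4A was thus near parity with KDM2B in the scramble and SETD2-depleted libraries and below it in both hnRNP L-depleted libraries.

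KDM4C made up 32.3% and 39.4% of the summed KDM4A, KDM4B and KDM4C TPM with scramble siRNA, 28.5% and 29.1% upon SETD2 depletion and 31.2% and 33.4% upon hnRNP L depletion. The SETD2-depleted libraries were below all others, while the scramble and hnRNP L-depleted libraries overlapped, and the scramble libraries differed from each other by as much as the group means of 35.9%, 28.8% and 32.3% did at most. KDM4A over KDM4C was 1.33 and 0.981 with scramble siRNA, 1.62 and 1.59 upon SETD2 depletion and 1.37 and 1.16 upon hnRNP L depletion, with the SETD2-depleted libraries highest.

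The sum over all 7 genes was 84.1 and 91.5 TPM with scramble siRNA, 87.0 and 97.6 TPM upon SETD2 depletion and 73.2 and 82.4 TPM upon hnRNP L depletion. The group means were 87.8 ± 5.204, 92.3 ± 7.44 and 77.8 ± 6.51 TPM (SD, n = 2 each). The scramble and SETD2-depleted libraries overlapped, and the hnRNP L-depleted libraries were below both groups. With the mitochondrial rescaling the means were 100.6, 98.9 and 86.3 TPM, which puts the scramble mean above that of SETD2 siRNA. The sum over the 7 genes was 6.29 and 7.82 times the SETD2 TPM with scramble siRNA. It was 20.5 and 19.9 times upon SETD2 depletion and 6.78 and 8.05 times upon hnRNP L depletion. KDM2A and KDM2B in this sum act on the lower methylation states and not on the trimethyl mark that SETD2 places. With its own siRNA SETD2 fell to 36.5% of its scramble mean, while the sum overlapped between the scramble and SETD2-depleted libraries.

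**Figure D4:**
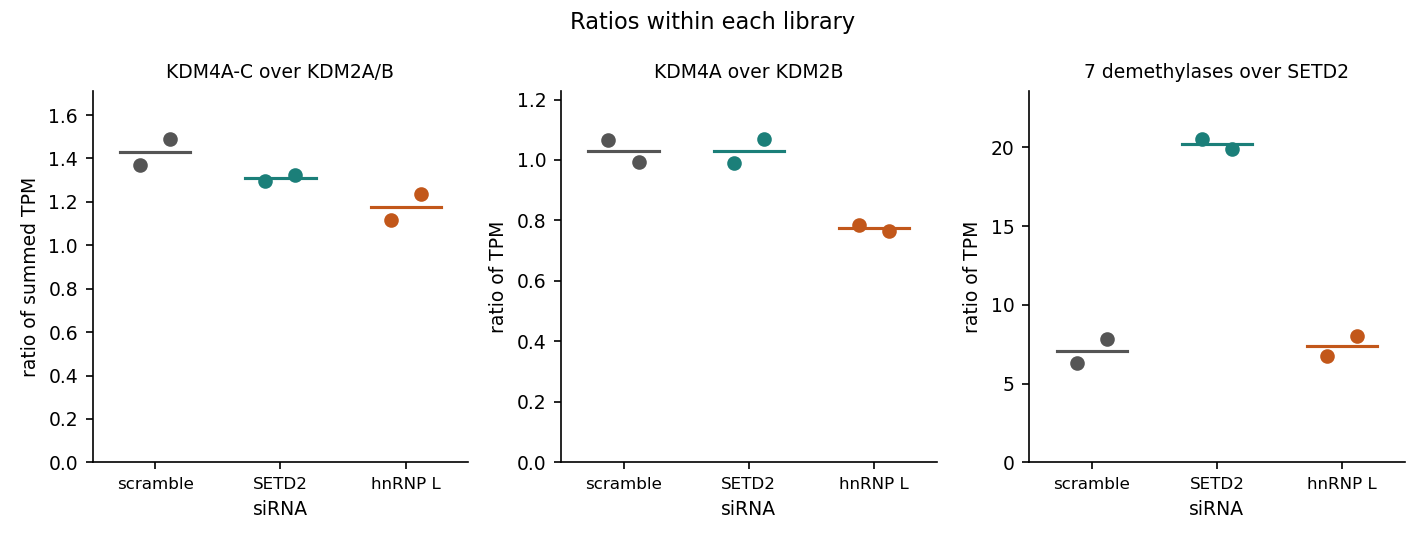
Ratios of TPM within each library (vertical axes, from 0) by siRNA (horizontal axes), with points for libraries and lines for means of 2 libraries. KDM4A over KDM2B lies at 0.786 and 0.764 with hnRNP L siRNA and at 0.989 or more elsewhere, and the ratio of the 7 genes to SETD2 is near 20.2 with SETD2 siRNA.

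The rest of the JmjC and LSD1 families, not all of whose members are demethylases, gave a frame for these values. Of 26 listed genes 23 were tested. KDM4E, KDM4F and HR, all close to 0 TPM, were left out. None passed the test upon SETD2 depletion, and none did upon hnRNP L depletion against scramble siRNA. In the latter comparison JMJD8, a JmjC domain protein, was at 0.49 (limma adjusted p = 0.0167), and KDM3B, an H3K9 demethylase, at -0.49 (limma adjusted p = 0.0453), so these 2 of 23 passed on adjusted p but not on fold, against 11.2% of all genes. JMJD8 was above 0.05 in 4 of 18 refits, among them those without either hnRNP L library or without scramble library 1, and KDM3B in 10 of 18, among them each that left out a library. JMJD7 stood at 0.63 (limma adjusted p = 0.0606) and KDM5A, an H3K4 demethylase, at -0.40 (limma adjusted p = 0.113).

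Between the depletions, JMJD8 was higher and KDM5A and KDM6B were lower with hnRNP L siRNA, 3 calls of 23, against 6.84% of all genes. JMJD8 stood at 50.8 and 54.4 TPM with scramble siRNA, at 40.1 and 42.1 TPM upon SETD2 depletion and at 74.6 and 73.5 TPM upon hnRNP L depletion. It differed by 0.84 on the log2 scale (limma adjusted p = 0.00263) and kept an adjusted p under 0.05 in all 16 refits. KDM5A differed by -0.65 (limma adjusted p = 0.0273), and KDM6B, which demethylates H3K27, by -0.64 (limma adjusted p = 0.0318). The adjusted p of KDM5A was above 0.05 in 6 of 16 refits and that of KDM6B in 10 of 16, including all 4 without a library of the groups compared. KDM3B was at -0.50 (limma adjusted p = 0.0457), under the fold limit, and was above 0.05 in 12 of 16 refits, among them every scaling and every library left out. The medians of the 23 genes in the 3 comparisons were 0.12, -0.13 and -0.24. Those of the H3K36 demethylases were 0.10, -0.16 and -0.21, and those of all genes 0.01, -0.08 and -0.10. The 23 genes were at 0.02, -0.17 and -0.20 with the mitochondrial rescaling, against -0.07, -0.13 and -0.06 over all genes, and at 0.10, -0.04 and -0.15 with median-ratio scaling, against 0.00 in each.

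Among the 7 H3K36 methyltransferase genes, 1 was called lower upon SETD2 depletion, SETD2 itself, which the siRNA targets. SETMAR, 1 of 7, was called lower upon hnRNP L depletion. Of all genes tested, 0.104% and 6.76% were called in these comparisons, in either direction. SETD2 was at -1.36 (limma adjusted p = 0.00603), and its adjusted p reached 0.162 over the refits, being above 0.05 with no filter, without scramble library 1 and without SETD2 library 2. SETMAR stood at 5.56 and 6.27 TPM with scramble siRNA, at 5.35 and 5.45 TPM upon SETD2 depletion and at 3.41 and 3.25 TPM upon hnRNP L depletion. It was at -0.74 against scramble siRNA (limma adjusted p = 0.0133), with an adjusted p of up to 0.1002 when a scramble or hnRNP L library was left out. NSD1, which places H3K36me2, was at -0.51 (limma adjusted p = 0.0691) and SMYD2 at -0.31 (limma adjusted p = 0.126) in that comparison. Between the depletions SETD2, itself an siRNA target, was higher and NSD1 and SETMAR were lower with hnRNP L siRNA. They stood at 1.12, -0.69 and -0.62 (limma adjusted p = 0.00303, 0.0264 and 0.0239). These calls stand against 6.84% of all genes. NSD1 and SETMAR each rose above an adjusted p of 0.05 without any 1 of the 4 libraries of the groups compared. Both were also above it with no filter, and NSD1 with no trend and with the mitochondrial rescaling.

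The 10 genes of the variant PRC1 complex that holds KDM2B included none that passed the test in any of the 3 comparisons, by limma with or without the fold limit. At an unadjusted p under 0.05 there were 0, 0 and 2 of 10, against 13.1%, 28.4% and 28.5% of all genes. The largest values upon hnRNP L depletion against scramble siRNA were -0.23 for the corepressor BCOR, 0.23 for the deubiquitinase USP7, -0.17 for RING1 and 0.14 for YAF2. Their limma adjusted p lay between 0.269 and 0.577. The medians of this list were 0.06, 0.03 and -0.04 in the 3 comparisons, and with the mitochondrial rescaling they were -0.03, -0.02 and 0.01, against -0.07, -0.13 and -0.06 over all genes. With median-ratio scaling they were 0.05, 0.12 and 0.07, and with quantile normalization 0.02, 0.15 and 0.06. The KDM2B value of 0.11 in the hnRNP L comparison lay within the range of these partners.

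**Figure D5:**
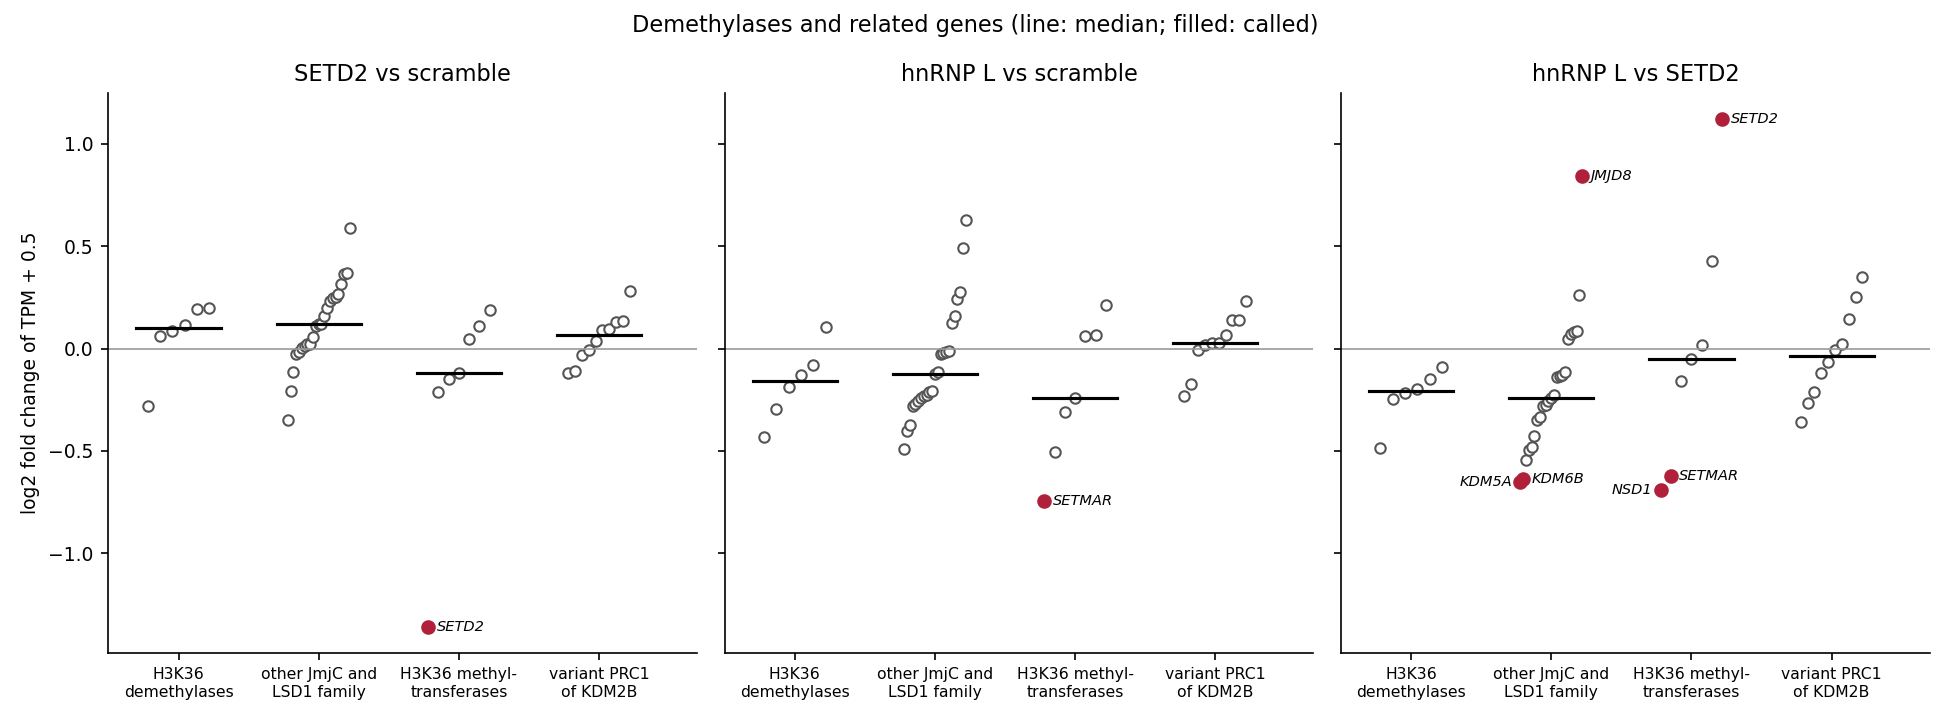
Log2 fold change of TPM + 0.5 (vertical axis) of the 6 tested H3K36 demethylases and 3 related gene lists (horizontal axis) in the 3 comparisons. Each point is a gene, lines are medians, and filled points were called. No H3K36 demethylase is filled, and the lowest in the right panel is KDM4A at -0.49.

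The genes whose pattern over the 6 libraries was most like that of each demethylase were found by the root-mean-square difference of centred log2(TPM + 0.5) values. KDM4A had the widest range of group means, 0.49 on the log2 scale, and its 3 nearest genes were MAF (0.0239), SUDS3 (0.0255), a subunit of the Sin3 corepressor, and HMGA2 (0.0268), an architectural chromatin protein. The spread of KDM4A about its own mean, on the same measure, was 0.209. MAF, a leucine zipper transcription factor, stood at 17.8 and 18.2 TPM with scramble siRNA, at 19.7 and 22.5 TPM upon SETD2 depletion and at 13.8 and 15.4 TPM upon hnRNP L depletion. MAF was picked for its likeness to KDM4A over these same libraries, so the shared order of groups follows from the choice. With the mitochondrial rescaling the scramble and SETD2-depleted libraries of KDM4A overlapped. The nearest gene was SP4 for KDM2A (0.0204), GRB2 for KDM2B (0.0174), RPS6KA6 for KDM4B (0.0223), ATP2A3 for KDM4C (0.0422) and AC090825.1 for KDM8 (0.0362). GRB2 is a signalling adaptor, SP4 a zinc finger transcription factor, RPS6KA6 a kinase and ATP2A3 a calcium pump. These distances are a description over 6 libraries, with no test.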

How the data were processed

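RNA was sequenced from 293T cells treated with scramble, SETD2 or hnRNP L siRNA (6 libraries), grouped by their titles. Per the methods, the authors aligned reads to hg38 with STAR 2.6.1c and Ensembl 96 models, and the deposited TPM per gene are the authors' RSEM 1.3.0 output. Their own test was a count model on protein-coding and lncRNA genes. Each column holds 58884 genes and sums to 1000000. TPM hold no counts, so limma 3.58.1 (R 4.3.3) was run on log2(TPM + 0.5) for the 16300 genes with a mean of at least 0.5 TPM. The fit used 1 mean per siRNA over all 6 libraries, a moderated variance that follows the mean (5.74 prior degrees of freedom) and Benjamini-Hochberg adjustment over these genes. An exact permutation test of 2 against 2 libraries cannot go below p = 0.333 and was not used. The fit was tested on simulated data. Python 3.11.15, NumPy 2.4.6, pandas 2.3.3 and Matplotlib 3.10.9 were used for tables and plots. Gene positions, biotypes and CA runs came from GENCODE 44 and hg38. GENCODE 44 gave no biotype for 412 genes, 93 of them tested.

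The members, the related lists and the alternatives were chosen with earlier results of these data known. Named beside the 7 genes were the siRNA targets, overlapping genes, the most alike gene of each member (3 for the member with the widest range of group means), every related gene that was called, and up to 4 genes of each related list with the largest change upon hnRNP L depletion against scramble. Chosen after seeing the values were RIOX2, the ratios, the mitochondrial rescaling and the crossed block. The alternatives were other pseudocounts (1 and 0.1), no filter, a mean of at least 1 TPM, a limit to protein-coding and lncRNA genes, and scaling by median ratios, by quantiles or by leaving the 37 mitochondrially encoded genes out of the total. Further fits held only the groups compared, no trend, no fold limit, a replicate block, or all libraries but 1.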

Additional observations from a re-analysis of the deposited data

Results flagged for a closer look

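The members and related genes below differed between the depletions in a direct test (limma, hnRNP L siRNA minus SETD2 siRNA on the log2 scale). KDM4A differed by -0.49 (adjusted p = 0.0279 by limma), and the adjusted p was above 0.05 in 6 of 16 refits. Among the other JmjC and LSD1 family genes the difference was 0.84 for JMJD8, -0.65 for KDM5A, -0.64 for KDM6B and -0.50 for KDM3B, with limma adjusted p of 0.00263, 0.0273, 0.0318 and 0.0457. The adjusted p of KDM3B was above 0.05 in 12 of 16 refits, that of KDM6B in 10 and that of KDM5A in 6. Among the methyltransferases the difference was -0.69 for NSD1 and -0.62 for SETMAR, with limma adjusted p of 0.0264 and 0.0239. These were above 0.05 in 7 of 16 refits for NSD1 and in 5 of 16 for SETMAR. The siRNA targets differed by construction, SETD2 by 1.12 and HNRNPL by -3.89. Groups of 2 libraries are too small for a search for outlying libraries.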

How the results depend on the processing

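Each log2 fold change of the 6 tested genes was refitted under the alternatives, 300 refits in all. Of these, 290 kept the direction and stayed short of the call (adjusted p and fold together), and 10 turned to the other sign. Refits that changed only the filter, the gene set, the trend, the block or the libraries not compared leave the fold change as it is. Their direction was fixed in advance, and they bear on the adjusted p only. On adjusted p alone KDM4A crossed 0.05 between the depletions in 6 of 16 refits. None of the 6 genes was called in any refit that kept the fold limit, and with no fold limit 1 gene, KDM4A, passed between the depletions. Upon SETD2 depletion KDM2A was at -0.034 with the mitochondrial rescaling, and with single libraries left out it ran from -0.062 to 0.18 and KDM8 from -0.20 to 0.38. Upon hnRNP L depletion against scramble siRNA, KDM4B was at 0.011 with median-ratio scaling and 0.053 with quantile normalization, and with single libraries left out it ran from -0.24 to 0.079 and KDM8 from -0.42 to 0.16. Between the depletions KDM2B was at 0.018 with median-ratio scaling and 0.036 with quantile normalization, and KDM4C ran from -0.31 to 0.011 with single libraries left out. The cause of these turns was not tested. The summed TPM of the 7 genes was 100.6 with scramble siRNA, 98.9 with SETD2 siRNA and 86.3 with hnRNP L siRNA after the mitochondrial rescaling.

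Over all genes, the 17 calls upon SETD2 depletion ran from 1 (no filter) to 60 (protein-coding and lncRNA genes only). The 1102 calls upon hnRNP L depletion against scramble siRNA ran from 172 (without hnRNP L library 1) to 1288, and the 1115 between the depletions from 127 (without SETD2 library 2) to 1253. Median-ratio scaling gave 420 higher and 528 lower genes upon hnRNP L depletion against scramble siRNA, in place of 286 and 816. Scramble and hnRNP L libraries share the numbers 1 and 2, and their same-numbered deviations correlated over the genes at r = -0.13. With 1 such deviation per gene in each group, this cannot show whether the numbers pair the libraries. A replicate block on these numbers called 1008 genes and crossed numbers 1256, against 1102, and 0 of the 6 genes in both. With 2 libraries a group, leaving 1 out assumes that the lone library varies like the others. Depth could not be judged from TPM, and the library depths that the study lists were not used.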
